A study of Mus musculus with 59 samples.

Results

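The cytosolic ribosomal proteins are the protein components of the ribosomes that translate nuclear-encoded mRNA in the cytosol. Their genes were chosen by symbol, as those named Rpl or Rps with a number, the stalk genes Rplp0, Rplp1 and Rplp2, and Rpsa, with genes whose symbol ends in -ps left out. The choice used no measured value and gave 89 of the 51456 listed genes, 53 of the large subunit and 36 of the small subunit. Of these, 81 passed the filter on low values (a mean of at least 10 normalized counts over all libraries), 48 of the large and 33 of the small subunit.

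Polyadenylated RNA was sequenced in 59 libraries of prefrontal cortex from C57BL/6J mice at postnatal day 25. By label, 29 libraries are heterozygous (HT) for Chd8-S62X and 30 are wild type (WT). The product of Chd8 is an ATP-dependent remodeller of chromatin, and mutations of the gene are linked to autism in people. The pups had taken fluoxetine, lithium or vehicle through the milk of their mothers from postnatal day 3 to day 24, so the dose that reached a pup is not given. Fluoxetine blocks serotonin reuptake, and lithium inhibits glycogen synthase kinase 3 and inositol monophosphatase. The 12 groups of genotype, treatment and sex held 5 libraries each, except HT fluoxetine females with 4. The labels name no dam, litter or batch, nor do they tie libraries to animals. The p-values therefore measure the spread between these libraries and not that between treated dams.

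The label check went against the genotype: Chd8 RNA was higher in the HT-labelled libraries, by 0.70 ± 0.027 on the log2 scale (SE, limma adjusted p = 9.23e-27, 29 against 30 libraries). Genotypes are therefore written as labelled, and each genotype direction rests on those labels. All 12 markers of excitatory cortical neurons were above the filter, with a summed level between 112924 and 188852 normalized counts. Markers of striatal projection neurons varied, from 6599 to 41723 normalized counts summed over 12 genes. The mean log2 level of the 11 of these above the filter exceeded the median by over 5 robust SDs in 10 libraries. These are called the libraries rich in striatal markers, and calls lost without them are given beside the result. Library totals lay between 30.3 and 33.7 M normalized counts.

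A ribosome has a large subunit, which forms peptide bonds and holds the exit tunnel, and a small subunit, which reads the mRNA. Most of these proteins are present once per ribosome and are made in matched amounts, and their mRNAs are known for a pyrimidine tract at the 5′ end, the TOP motif, through which mTORC1 signalling controls their translation. In neurons and glia ribosomes are also found in processes, where they translate locally.

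The TOP motif was looked for at the transcription starts that RefSeq gives (GRCm38.p6), as a C at the first transcribed base followed by at least 4 bases that are each C or T, on the strand of the gene. It was present in 13 of the 60 tested genes with an entry, or 21.7%, and in 813 of 27025 genes of all kinds, or 3.01%. The windows below run from 30 bases before the start through the first 20 transcribed bases, and show 3 genes with a match and 3 called genes without one, with the matching tract in capitals.
Rpl14: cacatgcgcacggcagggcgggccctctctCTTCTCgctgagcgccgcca
Rps6: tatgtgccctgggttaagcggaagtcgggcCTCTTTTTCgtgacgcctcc
Rps27: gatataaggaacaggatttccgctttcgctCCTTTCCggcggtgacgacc
Rps15: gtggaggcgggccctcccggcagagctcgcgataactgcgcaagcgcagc
Rpl4: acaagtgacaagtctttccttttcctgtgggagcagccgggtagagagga
Rps7: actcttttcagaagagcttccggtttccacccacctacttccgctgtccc
These windows lie at chr9:120571487-120571536 (plus strand) for Rpl14, chr4:86857348-86857397 (minus) for Rps6, chr3:90213629-90213678 (minus) for Rps27, chr10:80292401-80292450 (plus) for Rps15, chr9:64173357-64173406 (plus) for Rpl4 and chr12:28635934-28635983 (minus) for Rps7. Annotated starts differ between transcripts of a gene, so a start without a match says only that the tract is not at that base.

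Together the 89 genes held between 0.795 and 1.03% of a library's normalized counts, with a median of 0.883%. The mean of 76 of them was above 1000 normalized counts. Per length, the 81 tested genes lay between 289 and 14256 normalized counts per kb of transcript, with a median of 4961. The large subunit genes had a median of 4521 and the small subunit genes one of 5113 normalized counts per kb. The length was that of the shortest principal transcript in the annotation, and 39 genes had more than 1 such transcript, so the level per kb of these genes depends on that choice.

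The highest levels per kb were those of Rpl41, which encodes the smallest protein of the ribosome, at 14256, of the stalk gene Rplp1 at 14112 and of Rps24 at 12969. With the longest principal transcript, Rps24 stood at 3763 and Rpl41 at 10704 normalized counts per kb. The lowest tested were Rpl12 at 289, the Rps27 paralogue Rps27l at 410.4 and Rps27 at 416. The other stalk genes, whose products recruit the GTPases of translation, stood at 4119 (Rplp0) and 6030.2 (Rplp2) normalized counts per kb. Rpl5 and Rpl11, which bind the 5S rRNA and, outside the ribosome, Mdm2, stood at 795 and 4053 normalized counts per kb. Rps6, the substrate of the S6 kinases, was at 5023 and Rpsa, the laminin receptor protein, at 5923. Rps27a, which encodes ubiquitin fused to a ribosomal protein, was at 6362, and Rps19, mutated in Diamond-Blackfan anaemia in people, at 3313.

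**Figure D1:**
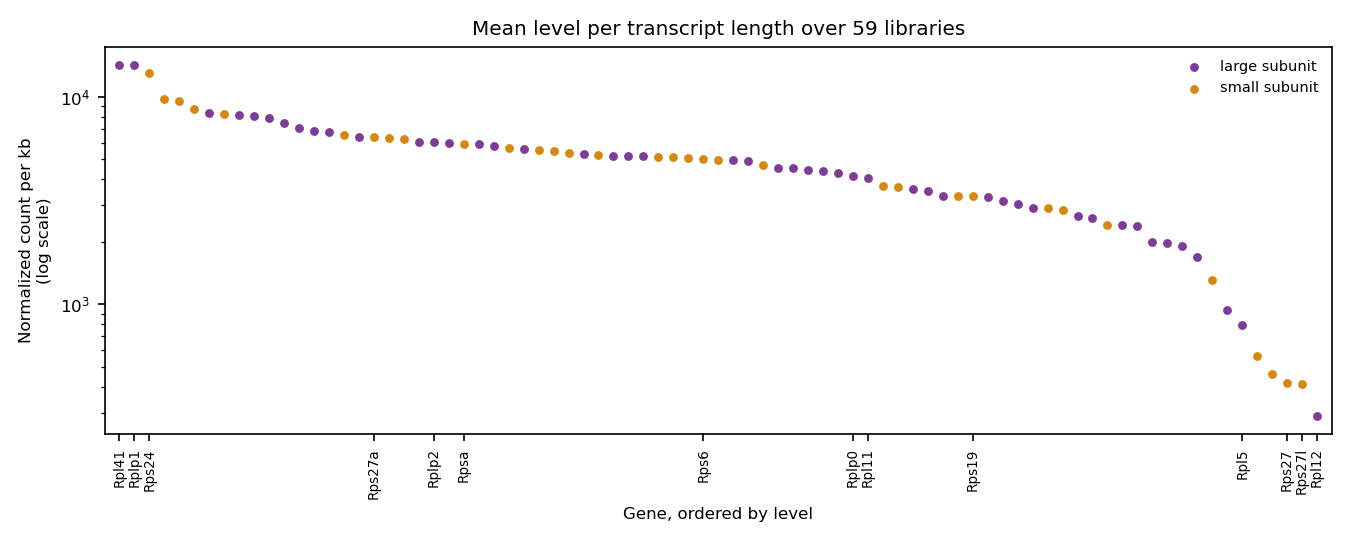
Mean level per length of the 81 tested genes over 59 libraries, in normalized counts per kb of the shortest principal transcript on a log axis, with genes in order of level and the genes described in the text named. Large subunit genes (purple) and small subunit genes (orange) are mixed along the order, which runs from Rpl41 at 14256 down to Rpl12 at 289.

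Paralogues differed widely in level. Rpl3l, the striated muscle form of Rpl3, averaged 7.47 normalized counts and was not tested, against 10967 for Rpl3. Rpl39l, known from testis, averaged 0.863 and was above 0 in 29 libraries, against 1476.5 for Rpl39. Rpl10l, the testis form of Rpl10, was listed at 0 in every library. Rpl22l1 averaged 883 and Rpl22 2446 normalized counts, and Rpl7l1 averaged 1221 against 4974 for Rpl7. The remaining 5 untested genes, Rpl32l, Rpl6l, Rps12l1, Rps3a2 and Rps3a3, are annotated as processed pseudogenes and averaged at most 2.78 normalized counts.

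Some genes share their sequence with copies, and reads of such copies can be divided between them in ways the counts do not show. For 61 of the 89 genes, 287 genes bear the same symbol with -ps. The copy Rpl10-ps3 is identical to Rpl10 over all 645 coding bases, and genes named as copies held 68.2% of the counts of Rpl10 and its copies together. The first 60 coding bases are shown because they illustrate that no base separates both.
Rpl10: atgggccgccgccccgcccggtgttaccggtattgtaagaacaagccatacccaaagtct
Rpl10-ps3: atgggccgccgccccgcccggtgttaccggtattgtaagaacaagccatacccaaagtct
Rps27 averaged 143 normalized counts and ranged from 21.9 to 848, whereas Rps27rt, identical to it over its 255 coding bases, averaged 1534. Copies held 45.2% for Rps23, 28.5% for Rps16 and 27.0% for Rpl10a. The values of Rpl10, Rps16, Rps23, Rps27 and Rpl10a are therefore uncertain. Apart from Rps27rt, copies were counted by the -ps symbol alone. Copies under other symbols were not counted, so the values of further genes may be uncertain too.

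The ribosomal protein genes varied together between libraries of the same group. After each group's mean had been taken away, a gene's log2 level had a median Pearson r of 0.619 with the mean of the other members over 59 libraries, and 58 of 81 genes were over 0.5. The same measure had a median of 0.00963 over the other 16758 tested genes, of which 33, or 0.197%, reached the median of the members. These correlations share the libraries and their scaling and are given as a description. Pairs within the large subunit had a median r of 0.377, pairs within the small subunit one of 0.411 and pairs across the subunits one of 0.400, so the subunits did not form separate blocks. Rps27a (0.84) and Rps4x (0.83) were among the genes that followed the others closely. Rpl7l1 (−0.14), Rps27 (−0.07), Rpl10 (0.06) and Rpl5 (0.19) followed them least. Of these, Rpl10 and Rps27 share their sequence with the abundant copies given above. Copies of Rpl7l1 and Rpl5 under symbols without -ps were not looked for.

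Among genes outside the list the 5 highest r were those of Mlc1 (0.749), Gm15500 (0.743), Ddah2 (0.71), Rasl10b (0.705) and Gm11808 (0.702). Whether Gm15500 and Gm11808 are copies of ribosomal protein genes was not tested. The mean level of 8 astrocyte markers had r = 0.60 with the mean of the members within groups (Spearman rho = 0.61). Without the pair of libraries with the most extreme marker levels, r was 0.56 for astrocytes. Other marker lists moved with the members too, with r = 0.47 for migrating neuroblasts (0.56 without such a pair), 0.47 for choroid plexus, 0.41 for olfactory bulb, 0.33 for endothelial cells and 0.25 for meningeal fibroblasts, and −0.39 for excitatory cortical neurons. The choroid plexus value rests on 4 markers, since Folr1, Kcne2 and Otx2 were below the filter. For blood cells, microglia, striatal projection neurons and myelin r lay between 0.03 and 0.18. All 8 astrocyte markers were above 0. In bulk tissue, fewer cells of a type and less RNA per cell cannot be told apart, and the part of these cell types in the differences below was not tested, except that the astrocyte marker level was added to the model.

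The members' share of a library did not separate the groups. It lay between 0.815 and 1.004% in fluoxetine libraries (median 0.890%), between 0.806 and 0.941% in lithium libraries (median 0.881%) and between 0.795 and 1.03% in vehicle libraries (median 0.873%). By genotype it lay between 0.795 and 1.03% in HT-labelled libraries and between 0.819 and 1.004% in WT-labelled libraries. The large subunit genes held 60.1% of the members' counts in fluoxetine libraries, 60.2% in lithium libraries and 60.1% in vehicle libraries on average, with SDs of 0.223, 0.239 and 0.338 percentage points.

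**Figure D2:**
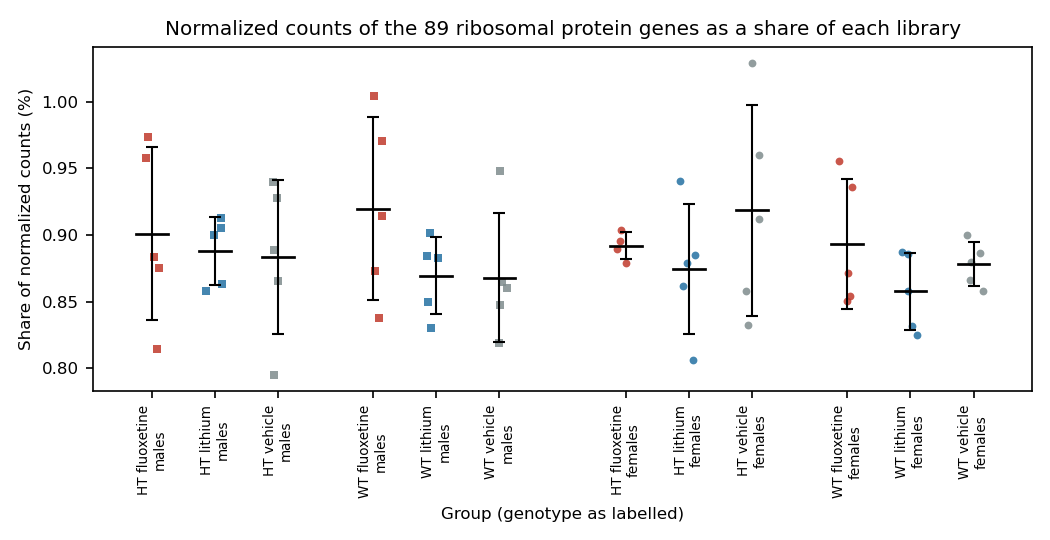
Share of each library's normalized counts that fell on the 89 ribosomal protein genes, in percent, for 12 groups. Points are libraries (squares males, circles females, red fluoxetine, blue lithium, grey vehicle), and lines and bars are the mean and SD. All groups overlap, between 0.795 and 1.03%.

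The comparison of fluoxetine with vehicle asks how early exposure changed the cortex, averaged over genotype and sex (19 against 20 libraries). Rpl14, Rpl21 and Rps15 rose and none of the ribosomal protein genes fell. Their 3 calls among 81 compare with a background of 0.0653% of 16839 tested genes, or 11 genes, of which 6 rose and 5 fell. The changes were small, with a median log2 fold change of 0.04 over the 81 genes, against 0.00 over all tested genes. The value was 0.05 for the large and 0.04 for the small subunit, and 66 of 81 genes lay above 0, against 50.9% of all genes. At an unadjusted p under 0.05 there were 28 genes, all higher with fluoxetine, against 11.9% of all tested genes (6.63% higher and 5.3% lower). The members vary together between libraries, so here and below such counts of members are not counts of independent genes. The members' mean log2 level had an SD of 0.060 between libraries of the same group. The summed astrocyte marker level had a median of 172055 normalized counts with fluoxetine (152722 to 203680) and of 165909 with vehicle (142949 to 201067), and 0 of 8 markers were called. Adding the astrocyte marker level as a covariate, an alternative chosen after seeing the data, left the same 3 calls and a median of 0.03, with 0.226% of all genes called.

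Rpl14 (ENSMUSG00000025794, chr9:120571444-120574654, plus strand, GRCm38) encodes a large subunit protein. In males it lay between 2497 and 2924 normalized counts with fluoxetine (median 2708, n = 10) and between 2015 and 2359 with vehicle (median 2247, n = 10), so every fluoxetine male was above every vehicle male. In females it lay between 2002 and 2731 with fluoxetine (median 2418, n = 9) and between 2124 and 2503 with vehicle (median 2311, n = 10), and the ranges overlapped. In the average over genotype and sex it rose by 0.16 ± 0.028 on the log2 scale (SE), or 1.12-fold (limma adjusted p = 0.00761), the smallest p of all tested genes. Its copy Rpl14-ps1, which matches it at 647 of 651 aligned bases, held 1.24% of their joint counts.

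Rpl21 (ENSMUSG00000041453, chr5:146832890-146837032, plus strand) also encodes a protein of the large subunit. It lay between 5310.2 and 6562 normalized counts with fluoxetine (median 5695, n = 19) and between 4816 and 5961 with vehicle (median 5258, n = 20). All 19 fluoxetine libraries lay above the vehicle median, and 2 lay above every vehicle library. The rise was 0.11 ± 0.022 (limma adjusted p = 0.0187). Rps15, a small subunit protein near the decoding centre, lay between 4469 and 5738 with fluoxetine (median 4882) and between 4116 and 5232 with vehicle (median 4611), and 18 of 19 fluoxetine libraries were above the vehicle median. It rose by 0.13 ± 0.028 (limma adjusted p = 0.0468), and this call was lost without any one of 22 of the 39 libraries (adjusted p from 0.0107 to 0.121).

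**Figure D3:**
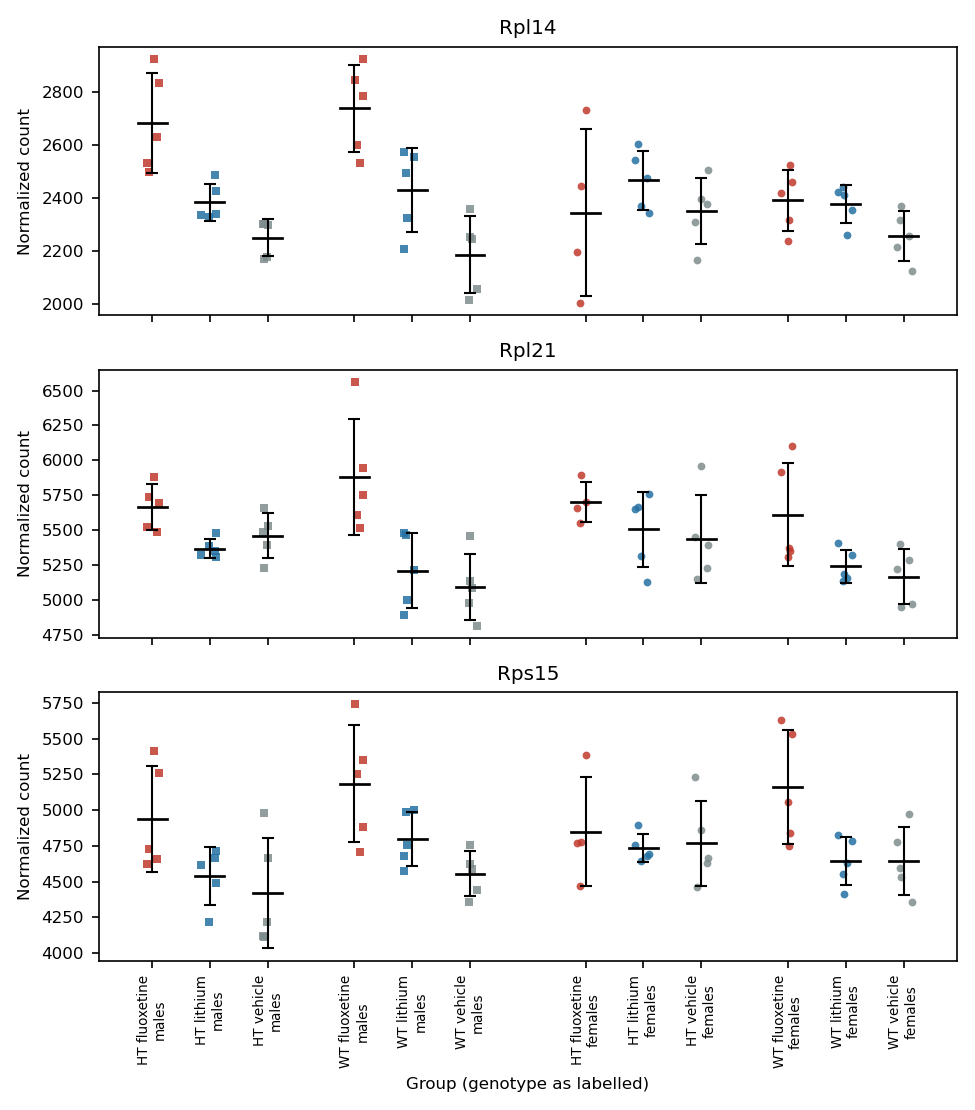
Normalized counts of Rpl14, Rpl21 and Rps15 in each library of the 12 groups (squares males, circles females, red fluoxetine, blue lithium, grey vehicle), with mean and SD. For Rpl14 the 10 fluoxetine males lie between 2497 and 2924, above all 10 vehicle males.

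Without the 10 libraries rich in striatal markers, 0 of the ribosomal protein genes were called after fluoxetine: Rpl14 had a log2 fold change of 0.12 with an adjusted p of 0.276, and the median over the members was 0.04. Of all tested genes, 0.00594% were called there. Rpl21 then stood at 0.11 (adjusted p = 0.276) and Rps15 at 0.11 (adjusted p = 0.422). The fluoxetine and vehicle libraries left out were all female. They were replicates 1 and 2 of the HT-labelled and 1 of the WT-labelled fluoxetine females. With vehicle they were replicate 3 of the HT-labelled and 5 of the WT-labelled females. Whether the calls were lost through fewer libraries or through striatal content was not tested. In the fit of all libraries, the next genes by p were Rpl24 at 0.14 ± 0.037 (adjusted p = 0.116), Rpl29 at 0.10 ± 0.028 (adjusted p = 0.128) and Rpl36 at 0.11 ± 0.034 (adjusted p = 0.170). Rplp0 stood at 0.05 ± 0.031, Rpsa at 0.06 ± 0.026, Rps6 at 0.03 ± 0.019 and Rpl5 at −0.03 ± 0.044, none of which passed. Rps27 had the lowest value, −0.49 ± 0.450, which its spread between libraries does not separate from 0.

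Split by sex, the calls after fluoxetine were in males. In males Rpl14 rose by 0.29 ± 0.039 (limma adjusted p = 2.16e-05, 10 against 10 libraries) and Rpl24 by 0.26 ± 0.052 (adjusted p = 0.0473), with a background of 0.0178% of genes called (0.0119% higher and 0.00594% lower). The members' median was 0.07, and 33 members passed an unadjusted p, all higher, against 8.51% of all genes. The call of Rpl24 was lost without any one of 12 of the 20 libraries (adjusted p from 0.0189 to 0.196). It was also lost without the libraries rich in striatal markers (adjusted p = 0.070). No fluoxetine or vehicle male is among those libraries. The fold change therefore stayed at 0.26, and only the spread shared with other groups and the adjustment changed. Rpl24 encodes a protein at the bridge between the subunits, and lay between 3014 and 3921 normalized counts in fluoxetine males against 2469 to 3134 in vehicle males, which overlapped. In females 0 genes were called among the members or among all tested genes (5 members and 941 genes at an unadjusted p), and Rpl14 stood at 0.04 ± 0.040. The difference between the sexes was not called for any gene. For Rpl14 it was 0.25 ± 0.056, with an unadjusted p of 3.82e-05 and an adjusted p of 0.643. Without the libraries rich in striatal markers, and without replicate 1 of the HT-labelled fluoxetine females alone, the interaction for Rpl14 was called. At an unadjusted p the interaction passed for 18 of 81 members, against 3.56% of all genes.

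Split by genotype, Rpl21 (0.16 ± 0.030, limma adjusted p = 0.00927), Rpl14 (0.20 ± 0.039, adjusted p = 0.0108) and Rps15 (0.17 ± 0.039, adjusted p = 0.0474) rose with fluoxetine in WT-labelled mice, where 0.19% of all genes were called (0.107% higher and 0.0831% lower). The call of Rps15 was lost without any one of 15 of these 20 libraries. Without the libraries rich in striatal markers Rpl14 was called (adjusted p = 0.0455), and Rpl21 (adjusted p = 0.0543) and Rps15 (adjusted p = 0.173) were not. The median of the members there was 0.06 and 72 of 81 lay above 0. In HT-labelled mice 0 members and 0 genes were called (6 members and 857 genes at an unadjusted p), and the members' median was 0.02. The interaction of genotype and fluoxetine was called for 0 of 81 members and 0 genes. Its median over the members was −0.05, 17 of 81 lay above 0, and 12 passed an unadjusted p, all lower, against 2.95% of genes in that direction. In the single strata, only WT-labelled males gave calls among the members. The share of all tested genes called in the other strata is not given here, so their lack of calls is not read as a result. In WT-labelled males Rpl14 lay at 2532, 2600.4, 2786, 2846 and 2923 normalized counts with fluoxetine. With vehicle it lay at 2015, 2054, 2243, 2251 and 2359, without overlap. It rose by 0.33 ± 0.055 (limma adjusted p = 0.00504) and Rpl21 by 0.20 ± 0.043 (adjusted p = 0.0491), with 0.0297% of all genes called (0.0119% higher and 0.0178% lower). In HT-labelled males Rpl14 lay at 2497, 2530.3, 2630, 2833 and 2924 with fluoxetine and at 2169, 2178, 2295, 2302 and 2302 with vehicle, again without overlap. The difference there was 0.25 ± 0.055 and was not called (limma unadjusted p = 3.27e-05, adjusted p = 0.276). In HT-labelled females it lay at 2002, 2197, 2444 and 2731 with fluoxetine and at 2163, 2308, 2376, 2397 and 2503 with vehicle, so the fluoxetine libraries spanned the vehicle range. The call of Rpl21 in WT-labelled males was lost without any one of 6 of the 10 libraries. It was also lost without the libraries rich in striatal markers (adjusted p = 0.136). No WT-labelled male given fluoxetine or vehicle is among those libraries. The fold change therefore stayed at 0.20, and only the spread shared with other groups and the adjustment changed. Both calls in WT-labelled males were lost when their fluoxetine and vehicle groups alone were fitted.

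**Figure D4:**
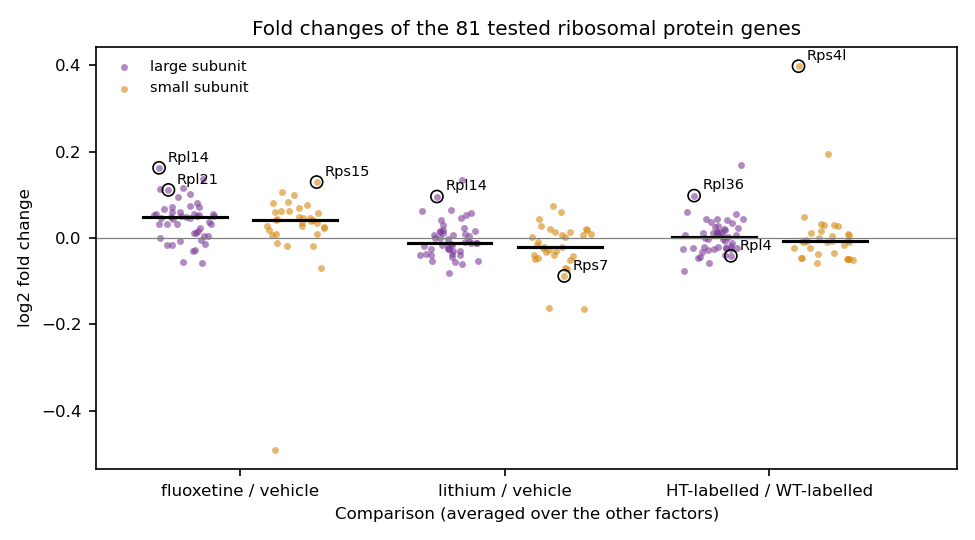
Log2 fold changes of the 48 large subunit genes (purple) and 33 small subunit genes (orange) in the 3 averaged comparisons, with medians as black lines and called genes circled and named. The fluoxetine medians are 0.05 and 0.04, and the lithium medians are −0.01 and −0.02.

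For lithium, 20 libraries were set against the 20 vehicle libraries. Rpl14 rose and Rps7 fell, 2 of 81 genes, with a background of 4.41% of all tested genes (2.8% higher and 1.61% lower). At an unadjusted p under 0.05 there were 9 members, 2 higher and 7 lower, against 18.7% of all tested genes. The members' median was −0.01, with −0.01 for the large and −0.02 for the small subunit, and 34 of 81 lay above 0. The median of all tested genes was 0.00. With the astrocyte marker level as a covariate the members' median was 0.01, on the other side of 0.

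Rpl14 lay between 2208 and 2605 normalized counts with lithium (median 2416, n = 20) and between 2015 and 2503 with vehicle (median 2276, n = 20), and 18 of 20 lithium libraries were above the vehicle median. The rise was 0.10 ± 0.028 (limma adjusted p = 0.0327). This call was lost without any one of 8 of the 40 libraries, with an adjusted p of at most 0.0572. Rps7, a small subunit protein that also binds Mdm2, lay between 3669 and 4711 with lithium (median 4189) and between 3880 and 4773 with vehicle (median 4442). It fell by 0.09 ± 0.027 (limma adjusted p = 0.0478), and the call was lost without any one of 31 of the 40 libraries. Without the libraries rich in striatal markers, 0 of the members were called. Rps20, with an adjusted p of 0.0579, stood at −0.16 ± 0.052. By genotype or sex, lithium gave 0 calls among the members, against 0.238% of genes in HT-labelled mice (0.148% higher, 0.0891% lower), 0.214% in WT-labelled mice (0.131% higher, 0.0831% lower), 0.303% in males (0.16% higher, 0.143% lower) and 0.338% in females (0.226% higher, 0.113% lower). At an unadjusted p there were 5 members in HT-labelled mice (10.2% of all genes), 6 in WT-labelled mice (11.9%), 2 in males (11%) and 13 in females (11.2%), so of these shares of the 81 members only that in females was above that of all genes. The members' median was 0.02 in males and −0.04 in females, a difference that was called for 0 members (3 of 81 at an unadjusted p, against 2.60% of genes).

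The genes with special roles gave no call for lithium. Rpl11 stood at −0.03 ± 0.023, Rps27a at −0.05 ± 0.027, Rplp1 at −0.04 ± 0.042 and Rps19 at −0.02 ± 0.031 on the log2 scale. The large minus small subunit mean log2 level was 0.22 ± 0.039 in fluoxetine libraries, 0.22 ± 0.040 in lithium libraries and 0.20 ± 0.055 in vehicle libraries (SD, n = 19, 20 and 20), and the ranges overlapped.

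Both drugs were compared with the same vehicle libraries, and Rpl14 was the gene that both comparisons called higher. Its log2 fold change was 0.16 ± 0.028 for fluoxetine and 0.10 ± 0.028 for lithium.

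HT-labelled were compared with WT-labelled libraries over treatments and sexes (29 against 30). Rps4l and Rpl36 were higher and Rpl4 was lower in HT-labelled libraries, 3 of 81 genes, with a background of 7.98% (3.67% higher, 4.31% lower). The members' median was 0.00 and 37 of 81 lay above 0. At an unadjusted p, 6 were higher and 9 lower, against 24.1% of all tested genes. With the astrocyte marker level as a covariate, chosen after seeing the data, 8 members were called, 1 higher and 7 lower, and 5.08% of all tested genes (2.39% higher, 2.68% lower). The summed marker level had a median of 166768 normalized counts in HT-labelled and 171197 in WT-labelled libraries.

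Rps4l is annotated as a transcribed processed pseudogene related to Rps4x, the X-linked gene of a small subunit protein, and was the only tested member annotated as a pseudogene. It lies at chr6:148354656-148355598 on the plus strand (GRCm38), inside Tmtc1 on the opposite strand. Its annotated transcript holds an open frame of 262 codons, against 263 codons in Rps4x, and it is identical at 79.9% of the 783 aligned coding bases. The stretch below covers coding bases 475 to 534 of Rps4x, with the 20 differing bases in capitals, and is shown because such differences allow reads of each gene to be told apart.
Rps4l: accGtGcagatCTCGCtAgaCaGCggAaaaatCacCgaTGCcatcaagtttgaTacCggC
Rps4x: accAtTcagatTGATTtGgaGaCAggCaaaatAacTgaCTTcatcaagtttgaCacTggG

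Rps4l lay between 311.5 and 527 normalized counts in HT-labelled libraries (median 412, n = 29) and between 222 and 438 in WT-labelled libraries (median 307.5, n = 30). Every HT-labelled library was above the WT-labelled median, and 6 were above every WT-labelled library. The difference was 0.40 ± 0.056 (SE), or 1.32-fold (limma adjusted p = 2.24e-06). It was called without any one of the 59 libraries. By treatment it was 0.43 ± 0.099 with fluoxetine (adjusted p = 0.0177), 0.34 ± 0.096 with lithium (adjusted p = 0.120) and 0.43 ± 0.096 with vehicle (adjusted p = 0.0356). The backgrounds were 0.849% of genes called with fluoxetine (0.386% higher, 0.463% lower), 0.267% with lithium (0.16% higher, 0.107% lower) and 0.202% with vehicle (0.125% higher, 0.0772% lower). The fluoxetine call was lost without replicate 3 of the HT-labelled fluoxetine females (adjusted p = 0.0774) or replicate 4 of the WT-labelled fluoxetine males (adjusted p = 0.0516), and without the libraries rich in striatal markers (adjusted p = 0.0665). The vehicle call was lost without any one of 9 of 20 libraries and with the astrocyte covariate (adjusted p = 0.0992). In the 6 single strata of treatment and sex 0 members were called, while Chd8 was called in each. The log2 fold change of Rps4l there ran from 0.23 (lithium females) to 0.50 (vehicle males). The share of all tested genes called in these strata is not given here, so the lack of calls is not read as a result about the members. Rps4x stood at 4920 ± 300 and 4937 ± 265 normalized counts in HT-labelled and WT-labelled libraries, and Tmtc1, at −0.02 ± 0.020, did not pass.

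**Figure D5:**
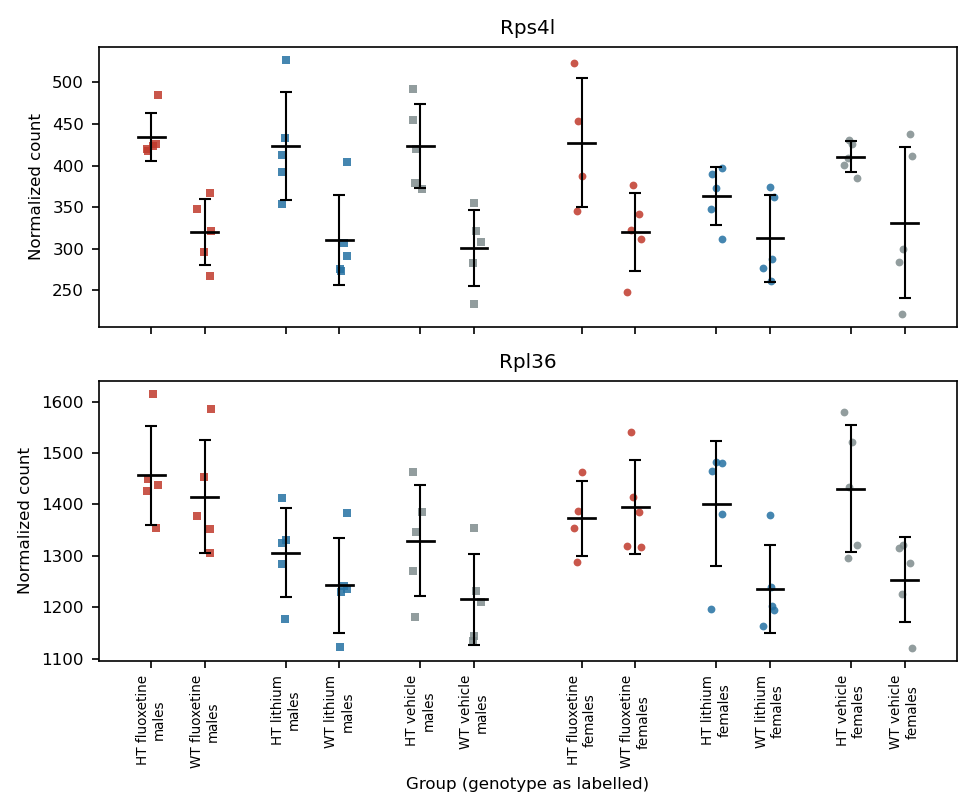
Normalized counts of Rps4l and Rpl36 in each library, with HT-labelled left of WT-labelled for each treatment and sex (squares males, circles females, red fluoxetine, blue lithium, grey vehicle), and mean and SD. All 29 HT-labelled libraries of Rps4l lie above the WT-labelled median of 307.5.

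Rpl36, a large subunit protein, lay between 1176 and 1615.5 normalized counts in HT-labelled libraries (median 1386) and between 1121 and 1586 in WT-labelled libraries (median 1296), with 22 of 29 above the WT-labelled median. It was higher by 0.10 ± 0.027 (limma adjusted p = 0.0193) and lost its call without the libraries rich in striatal markers (adjusted p = 0.0971) and with the astrocyte covariate (adjusted p = 0.0753). Rpl4, a large subunit protein that lines the exit tunnel, lay between 9107 and 10228 in HT-labelled and between 9237 and 11264 in WT-labelled libraries, with 24 of 29 below the WT-labelled median of 9948. It was lower by 0.04 ± 0.013 (limma adjusted p = 0.0332, 0.97-fold). That call was lost without any one of 4 of the 59 libraries, namely replicates 3 and 4 of the HT-labelled fluoxetine females, replicate 5 of the HT-labelled vehicle females and replicate 3 of the WT-labelled vehicle males, with adjusted p between 0.0503 and 0.0551, and without the libraries rich in striatal markers (adjusted p = 0.0533). Rpl10, linked to autism and intellectual disability in people, stood at 0.17 ± 0.065 (adjusted p = 0.10) and Rpl10-ps3 at −0.10 ± 0.032 (adjusted p = 0.0304). Summed with its named copies, Rpl10 averaged 4745 normalized counts in HT-labelled and 4836 in WT-labelled libraries, and stood at −0.03 ± 0.019 (adjusted p = 0.408).

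Genes of the surrounding machinery were taken from lists. After fluoxetine, 0 of 13 elongation factors, 0 of 35 initiation factors, 0 of 56 ribosome assembly factors and 0 of 19 genes of RNA polymerase I were called, against 0.0653% of all tested genes. At an unadjusted p there were 5 elongation factors, 7 initiation factors, 4 assembly factors and 2 genes of RNA polymerase I, against 11.9% of all tested genes. After lithium 4.41% of all genes were called. Of 35 initiation factors 1 fell, Eif3e, a subunit of the scaffold that loads the small subunit (−0.09 ± 0.022, limma adjusted p = 0.00953). Nucleolin, Ncl (−0.09 ± 0.018, adjusted p = 0.00121), and the RNA-binding protein gene Cnbp (−0.07 ± 0.020, adjusted p = 0.0321) fell too. Polr1c, a subunit shared by RNA polymerases I and III, rose (0.20 ± 0.059, adjusted p = 0.0391). Ncl, Cnbp and Polr1c were named because they were called. The counts for their lists are not given here, so no list is read as changed. In HT-labelled libraries, with 7.98% of all genes called and 4.31% lower, 3 of 13 elongation factor genes were lower, Eef1g (−0.08 ± 0.015), the elongation factor kinase Eef2k (−0.14 ± 0.035) and Eif5a (−0.06 ± 0.017), and 4 of 35 initiation factors, Eif1ax, Eif3e, Eif4a2 and Eif4h (−0.04 to −0.09). Of 56 assembly factors, Nop56 was lower and Emg1 higher in HT-labelled libraries, a smaller share than that of all genes.

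Sex itself called 0 of 81 members when males were compared with females over all groups (2 at an unadjusted p, against 0.154% of all genes at the adjusted threshold and 7.85% at the unadjusted one).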

How the data were processed

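The authors deposited 1 table of signal values, normalized estimated counts that are not whole numbers and that sum to 30.3 to 33.7 M per library. Per the submitters' processing notes, Salmon 0.11.2, DESeq2 1.19.11, R 3.6.0 and GRCm38 were used, with no role or order given. Only 5.02 to 28.0% of low values were whole multiples, within 0.01, of the most frequent low value, so reads were not recovered and no count model was fitted. Symbols matched 51285 of 51456 identifiers and failed to match 171. No file column lacked a sample.

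The signal was analysed as log2(value + 1) with limma 3.58.1 (R 4.3.3, statmod 1.5.0) in 1 model of 12 group means, with trend and robust empirical Bayes. Adjustment was Benjamini-Hochberg over 16839 genes with a mean of at least 10, and calls were made at 0.05. The fold change of a low gene is understated by the added 1. SE follows log2 fold changes and SD follows levels. Precision is limited by the number of libraries per group. Coordinates are those of GENCODE vM21 (GRCm38). The model was tested on simulated data.

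The members and lists were chosen with earlier results of these data known. Named genes were all called members, those with special roles or paralogues, and the highest and lowest per length. Rps20, Rpl29, the genes with abundant copies and the genes that varied with the members were chosen after their values were seen. The labels do not say that replicate numbers pair libraries, and the main model did not pair them. Across groups, 123 of 319 same-number pairs had a correlation above 0.1. Their median was 0.048, against −0.019 for pairs of different numbers, so some shared variation by number is possible. Alternatives are listed in the closing section. Some results are not reported here.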

Additional observations from a re-analysis of the deposited data

Results flagged for a closer look

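Among 120 values of 10 measures and 12 groups, 4 stood apart from the rest of their group, and chance alone would give about 1 in 20. The large minus small subunit mean log2 level was 0.16 in replicate 2 of the HT-labelled fluoxetine females, against 0.24 to 0.26 in the rest of the group. Rps7 was at 4480 normalized counts in replicate 3 of the WT-labelled vehicle males, against 4368 to 4398 in the others. Rps4l stood at 485 in replicate 2 of the HT-labelled fluoxetine males, against 417 to 426 in the others, and at 405 in a WT-labelled lithium male, replicate 2, against 274 to 307 in the others. The last library also had the highest striatal marker level.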

How the results depend on the processing

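The members' median fold change for fluoxetine stayed between 0.03 and 0.06 over 11 alternatives. Those for lithium (−0.01 to 0.01), for HT-labelled against WT-labelled libraries (−0.02 to 0.00) and for that comparison within vehicle (−0.01 to 0.02) changed sign under some, so their direction depends on the processing. No called gene changed sign. Of 351 counts of called members, 36 moved by over 1.5 times, and the cause was not tested. Except where single libraries were left out, each count of members below stands beside the percentage of all tested genes called under the same setting. For the leave-one-out fits that percentage was not computed. For fluoxetine averaged over genotype and sex, 0 members were called without the libraries rich in striatal markers (0.00594%) and 1 when only the compared groups were fitted (0.0238%). In fluoxetine males, 1 was called without trend and robust, with either TMM scaling, without the filter, without the striatal-rich libraries and with the compared groups alone (0.00586 to 0.0178%), and 7 once the first principal component was a term (0.148%). In WT-labelled males, 1 was called under the first 5 of those settings (0.00594 to 0.0178%), 6 with the component (0.226%) and 0 with the compared groups alone (0 genes). In WT-labelled mice, 6 were called with the replicate block (0.671%), 12 with the component (1.02%), 1 without the striatal-rich libraries (0.0238%) and 0 with the compared groups alone (0 genes). The interaction of sex and fluoxetine gave 1 without the striatal-rich libraries (0.00594%). Lithium gave 1 without trend and robust (4.34%), 1 with the astrocyte covariate (2.42%), 0 without the filter (1.41%) and 0 without the striatal-rich libraries (2.99%). HT-labelled against WT-labelled libraries gave 6 with the component (8.23%), 8 with the astrocyte covariate (5.08%) and 1 without the striatal-rich libraries (5.44%). Within fluoxetine that comparison gave 2 with the replicate block (1.53%), 4 with the component (1.97%), 2 with the astrocyte covariate (1.38%) and 0 without the striatal-rich libraries (0.35%). Within vehicle it gave 0 without the filter (0.0527%), with the astrocyte covariate (0.0831%) or with the compared groups alone (0.0356%), and in vehicle females 1 with the component (0.0891%). Leaving out each library in turn gave 2 to 3 members for fluoxetine averaged, 1 to 3 in males, 2 to 5 in WT-labelled mice, 1 to 3 in WT-labelled males, 0 to 1 for the sex interaction and 0 to 3 for lithium. It gave 2 to 4 for HT-labelled against WT-labelled libraries, 0 to 2 within fluoxetine and 0 to 1 within vehicle. Rpl4 also lost its call with either TMM scaling, without the filter and without the striatal-rich libraries. Same-number libraries were not paired by the labels, and 19 of 59 libraries correlated best with one of their own number, so the replicate block is a hint from the data only. The planned count-model fit was not run, since the values are normalized. Under TMM scaling the overall median shifted by 0.00708 or less. The number of libraries per group limits the precision.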
